A study of Drosophila melanogaster with 3 samples.

Results

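The regions described here are the ChIP-seq peaks that lie directly below the reproducibility threshold in the binding map of the Drosophila transcription factor shaven (sv). They were chosen by their signal: the pooled peak list, sorted from the strongest peak down, holds 30000 peaks, and those directly after the authors' optimal set were taken, as many as that set holds. They make up 12.7% of the list, with 1816 in promoters and 2007 elsewhere. The optimal set, which passed the authors' IDR filter (irreproducible discovery rate, a measure of whether peaks keep their order between replicates), is the top of the same list, down to the rank where these peaks begin. The equally many peaks that follow are called the next ranks. Chromatin came from whole wandering larvae of the third instar, both sexes mixed, of a transgenic sv-GFP line that carries isoform RD of sv with GFP fused to its C-terminus, and was recovered with an antibody against GFP. There were 3 biological replicates of this 1 group, with no second genotype, stage or treatment, and the age of the larvae is given as unknown. Whole larvae mix all tissues, so a weak peak from many cells and a strong peak from few cannot be told apart, and the lists hold no reads from which depth could be known.

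sv is the Drosophila member of the Pax2/5/8 group of paired-domain transcription factors and is needed for cone and pigment cell fate in the eye and for building the bristle shaft of sensory organs. A ChIP-seq peak marks a stretch of chromatin recovered more often than its surroundings, and its summit is the base of highest signal. In whole-animal maps of transcription factors many summits lie in open chromatin at gene starts, where core promoter elements such as the DREF site and the element known as motif 1 are found in housekeeping genes.

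The sequences at the threshold are shown first, because the last optimal peak and the first one below it had nearly the same signal, 72.6277 and 72.6263. Each is the plus strand of dm6, the summit base, in capitals, with 50 bases on either side. The last optimal summit lies in an intron of Reck, on 3L:15011775-15011875. The first 3 below the threshold lie in an intron of Atat, a tubulin acetyltransferase gene (3L:9425703-9425803), in an intron of Evi5 (X:11451230-11451330) and upstream of CG31871 (2L:10661830-10661930). The window at Reck holds 24.8% GC and that at CG31871 20.8%, against 44.6% at Atat and 42.6% at Evi5.
Reck: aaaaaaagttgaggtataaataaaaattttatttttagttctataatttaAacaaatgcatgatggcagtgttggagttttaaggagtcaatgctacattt
Atat: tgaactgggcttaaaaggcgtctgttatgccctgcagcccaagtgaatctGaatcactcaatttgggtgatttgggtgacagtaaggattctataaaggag
Evi5: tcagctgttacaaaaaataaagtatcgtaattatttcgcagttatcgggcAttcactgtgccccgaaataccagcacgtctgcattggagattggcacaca
CG31871: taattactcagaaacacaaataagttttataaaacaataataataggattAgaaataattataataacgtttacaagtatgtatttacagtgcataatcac

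For the next 4 sequences, only summits whose windows overlap no annotated UTR or exon were considered, and not those of every arm. The 4 are the best ranked of these below the threshold with a DREF site, TATCGATA, within 50 bp of the summit. In these windows the capitals mark the site. They lie 53 bp upstream of the start of the ubiquitin protease gene Usp7 (X:12029035-12029135), 98 bp upstream of the microtubule protein gene Map205 (3R:32068489-32068589), 85 bp upstream of the cell cycle kinase gene Cdk2 (3R:20735488-20735588) and 56 bp upstream of CG9386 (3R:9555414-9555514).
Usp7: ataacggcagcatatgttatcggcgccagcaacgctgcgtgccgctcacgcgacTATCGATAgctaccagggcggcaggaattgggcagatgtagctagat
Map205: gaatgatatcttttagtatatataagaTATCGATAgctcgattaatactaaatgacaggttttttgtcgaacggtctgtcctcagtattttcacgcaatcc
Cdk2: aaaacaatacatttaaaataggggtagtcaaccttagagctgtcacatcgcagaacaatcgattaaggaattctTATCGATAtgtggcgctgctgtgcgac
CG9386: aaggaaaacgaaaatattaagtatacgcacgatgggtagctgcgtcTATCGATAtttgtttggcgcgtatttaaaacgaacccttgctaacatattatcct

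Motif 1 is marked in the same way in the windows at scrib, an epithelial polarity gene (3R:26536215-26536315), and at fwd, a phosphatidylinositol 4-kinase gene (3L:319897-319997). In both the element lies within 50 bp of the summit, in one orientation at scrib and in the other at fwd.
scrib: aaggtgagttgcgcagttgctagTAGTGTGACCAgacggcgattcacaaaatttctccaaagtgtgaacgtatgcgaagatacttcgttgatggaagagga
fwd: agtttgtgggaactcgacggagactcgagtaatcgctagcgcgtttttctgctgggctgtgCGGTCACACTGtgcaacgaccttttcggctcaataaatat

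The last sequence is the 60 bases directly upstream of the annotated start of sv itself (4:1088738-1088797, 46.7% GC), shown because the tagged gene's own start has a summit at rank 6379 and none in the optimal set. The capital marks the summit, 8 bp upstream of the start.
sv: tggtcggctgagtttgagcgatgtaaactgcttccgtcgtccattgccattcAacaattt

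Signal values below the threshold ran from 72.6 down to 43.6, with a median of 54.0 and quartiles of 48.1 and 62.0; these values chose the peaks and are a description. The step at either edge was small. The last 3 optimal peaks had signals of 72.631, 72.6296 and 72.6277, and the first peak below had 72.6263. At the lower edge the last peak had 43.6032 and the one after it 43.602. No gap in signal sets the optimal set apart from the peaks below it.

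The deposited −log10 q, the caller's own measure of significance, was lower for most peaks below the threshold than for any optimal peak, but not for all. Every optimal peak had the list's highest value of 3.96, and so did 782 of the peaks below the threshold (20.5%), down to rank 4605. The rest fell to 1.55, with a median of 2.29 over all. That is a q of at most 0.0281 for each, so all of them lie under a q of 0.05, as do 8524 of the 30000 pooled peaks. Nearly all had the same deposited width, 520 bp in 3816 peaks.

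Individual peaks below the threshold were found in fewer replicates than optimal peaks. A peak was counted as found where a replicate's own list had a summit within 200 bp within the part of its ranking that reaches down to the same last rank as these peaks in the pool. Replicate 1 held 66.3% of the summits, replicate 2 held 55.7% and replicate 3 held 56.3% (mean 59.4% ± 6.00, SD, n = 3), against 95.8% ± 2.34 for the optimal set and 25.0% ± 0.22 for the next ranks. All 3 replicates held 715 (18.7%), exactly 2 held 1710 (44.7%), 1 held 1250 (32.7%) and none held 148 (3.87%). Over the whole pooled list 14.1% of summits were in all 3, most of them optimal: the share was 88.1% in the optimal set and 1.86% in the next ranks. The pooled list is made of the same reads as the replicates, so these shares carry no test.

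Support was lower at lower ranks. In bands of 955 or 956 peaks, the share found in all 3 replicates was 44.1% down to rank 4778, then 19.0% in the band after it, 7.74% in the one that ends at rank 6690 and 3.97% in the last. The last 955 optimal peaks had 68.6%. Part of this is built in, because the ranks allowed in a replicate end where these peaks end in the pool. In the whole replicate lists of 30000 peaks, which contain background, 98.3% had a summit in at least 2 replicates and 75.3% in all 3. Over the whole pooled list these shares were 64.8% and 31.8%, and in the next ranks 89.7% and 41.8%.

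The ranks and signals in each replicate describe this disagreement further. A peak's rank in a replicate is given as that of the nearest summit within 200 bp in its list, so a stronger summit slightly further away can still count as support. The median rank was 6190 in replicate 1, 6495 in replicate 2 and 6418.5 in replicate 3, with medians of 1907.5 to 1939 for the optimal set. In each replicate some of them were strong. A summit within 200 bp at a rank that would be optimal in the pool was present for 17.4%, 19.4% and 20.6% of them in replicates 1, 2 and 3 (mean 19.2% ± 1.64, SD, n = 3). At least 1 replicate had such a summit for 1753 of them (45.9%), and all 3 replicates had it for 70 (1.83%), while 54.1% had it in none. Over the whole pooled list 8.14% had it in all 3 and 78.4% in none. In the optimal set these shares were 60.6% and 0.732%. Between replicate signals, Spearman's rho across these peaks was -0.07 in replicates 1 and 2 (3266 peaks), -0.09 for 1 and 3 (3258 peaks) and 0.02 for 2 and 3 (2992 peaks). In the optimal set the same rho was 0.62 to 0.66, and in the next ranks it was -0.06, -0.09 and 0.01 for the same pairs. The peaks share a control and were picked from a narrow range of pooled signal, a choice that by itself lowers the rho, so these values describe the lists and are not a test.

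**Figure D1:**
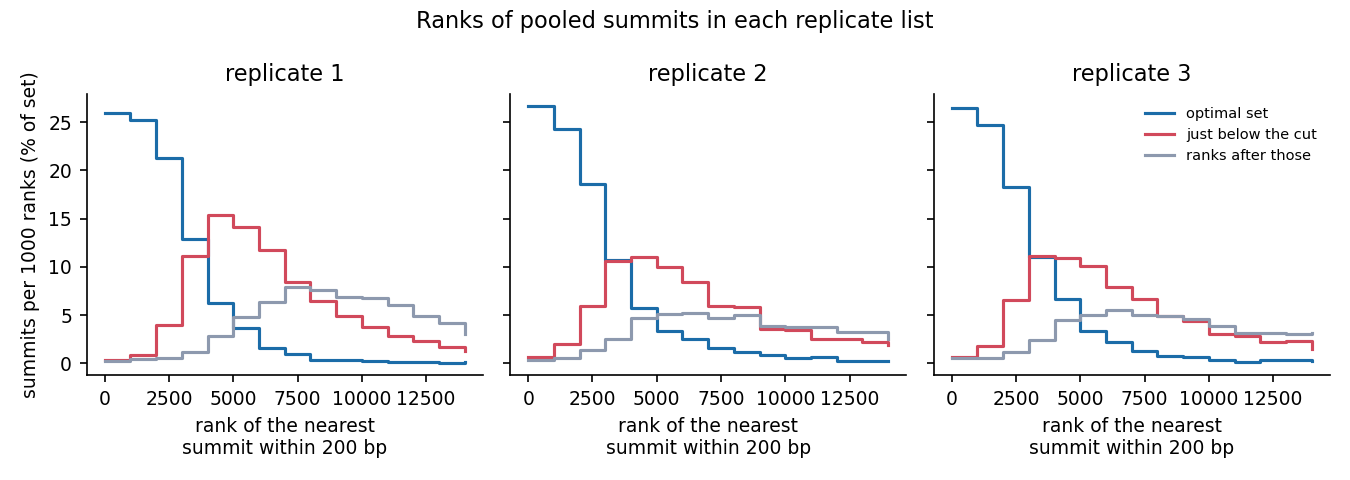
The share of each set of pooled summits (vertical axis, percent per 1000 ranks) is plotted against the rank of the nearest summit within 200 bp in the list of replicate 1, 2 or 3, for the optimal set, the peaks just below the threshold and the ranks after those. The optimal set piles up at the left with medians of 1907.5 to 1939, while the peaks just below it spread widely around medians of 6190 to 6495.

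Some of this support belongs to neighbouring summits. The caller placed summits no closer than 199 bp, and 324 of these peaks (8.48%) lay within 210 bp of an optimal summit, as shoulders of a stronger peak. All 10 of the best supported peaks by their worst replicate rank were of this kind. An example is the summit at ced-6, an engulfment adaptor gene, at pooled rank 4568 and 204 bp from an optimal summit, with replicate ranks of 1370, 563 and 540. Others lay at CG3961, CG7484, CG1662, Elp4, CG31922, the titin gene sls, Nup37, Srp14 and CG1943. In an analysis chosen after seeing the data, each replicate summit was counted only for the pooled summit nearest to it. The share in all 3 replicates was then 12.7% below the threshold (486 peaks), 80.2% in the optimal set and 0.183% in the next ranks.

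With summits counted in that way, the best supported peak below the threshold by worst rank was that at CG1943. It lies 207 bp from an optimal summit and ranked 3231, 3180 and 2131. Among the best supported, those at Sumo and Eip63E also lay close to an optimal summit, at 229 bp and 199 bp. Others lay further away. The summit 51 bp upstream of CG2059 (rank 4531, 5757 bp from the nearest optimal summit) ranked 3890, 3199 and 3936 in replicates 1, 2 and 3. The one 138 bp upstream of CG14715 (rank 4238) ranked 3633, 3799 and 3993. Intronic ones were at wts, the Hippo pathway kinase gene (rank 4451, 666 bp from an optimal summit, replicate ranks 3599, 3404 and 2223), and at pnt, an ETS transcription factor gene (rank 5337, replicate ranks 4152, 2729 and 3974). All of these had ranks no worse than 4152 in every replicate.

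At the other extreme are peaks supported in 1 replicate by the 200 bp rule, which does not count a summit just beyond that distance. The summit 21 bp inside the start of mRpS10 was rank 23 in replicate 2, with a signal of 205 there. It had no summit within 200 bp in the other lists. In the pool it was rank 5190 and lay 204 bp from an optimal summit. At raskol the pooled rank of 4039 came with rank 824 in replicate 1 and no summit within 200 bp elsewhere. A peak in an intron of oys, 1740 bp upstream of the start of COX7C, had ranks of 1328, 11354 and 18190. Both lay 199 bp from an optimal summit. Away from optimal summits, the peak 213 bp upstream of tara, a chromatin-associated regulator gene, had ranks of 14563, 1598 and 22130, and the peak 314 bp upstream of CG16700 had 1714, 11785 and none. The first 5 below the threshold, at Atat, Evi5, CG31871, the actin gene Act5C and CG6983, were each found in all 3 replicates. Of the last 5, at ctrip, CG32428, ptc, CG1695 and CG3603, 4 were found in 1 replicate and 1 in none.

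Gene starts held a smaller part of these peaks than of the optimal set. A summit was called promoter if it lay within 500 bp of any annotated start, and otherwise was placed in a UTR, an exon, an intron or intergenic sequence, in that order. Promoters held 1816 summits (47.5%), introns 1331 (34.8%) and intergenic sequence 536 (14.0%). The optimal set had 58.9%, 28.9% and 9.99% in the same classes, and the next ranks had 37.2%, 38.6% and 16.0%. Coding exons held 37 summits (0.968%), against 6 (0.157%) in the optimal set and 181 (4.73%) in the next ranks. There were 40 summits in 3' UTRs, 22 in 5' UTRs and 41 in other exons. In each of these large classes the peaks below the threshold lie between their neighbours in rank.

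**Figure D2:**
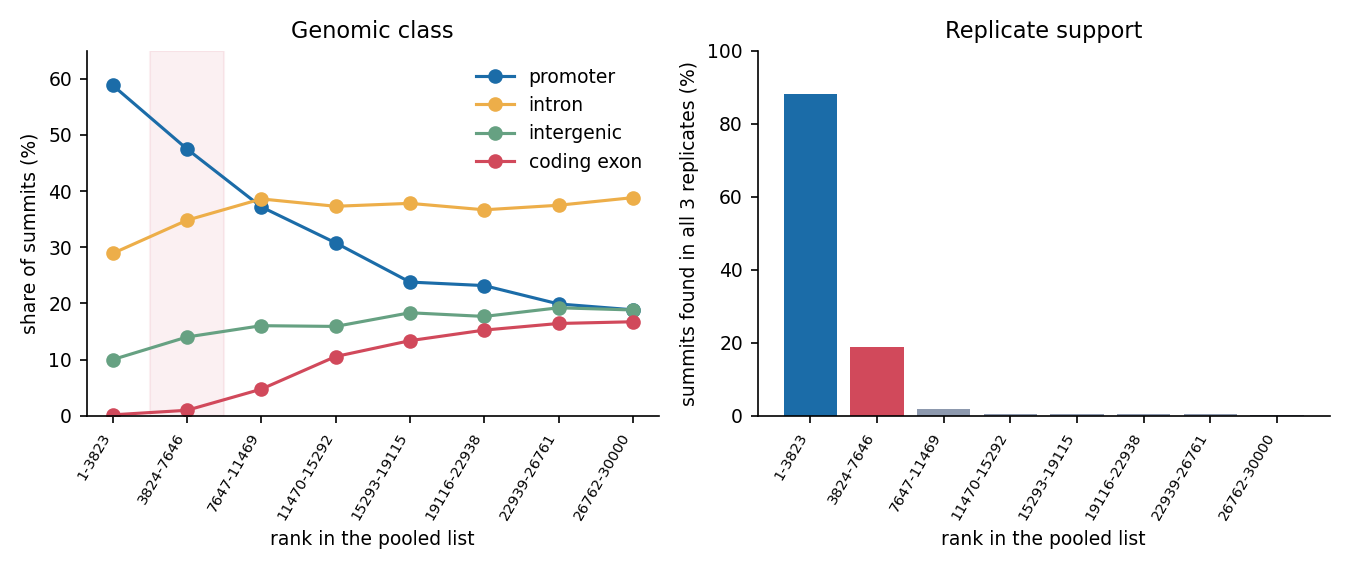
Left, the share of pooled summits in promoters, introns, intergenic sequence and coding exons (percent, vertical axis) by rank band in the pooled list; the shaded band holds the peaks just below the threshold. Right, the share found in all 3 replicates, as defined for the support counts. Promoters hold 58.9%, 47.5% and 37.2% in the first 3 bands, where support is 88.1%, 18.7% and 1.86%.

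The replicates' own lists, which rank peaks without the pooled list, allow the class shares to be compared over samples. In each list, the peaks at the same ranks were set against those at the ranks of the optimal set. The promoter share was 56.3%, 59.1% and 59.8% at the top and 45.6%, 43.1% and 44.3% below in replicates 1, 2 and 3. It was thus lower below in 3 of 3, by a mean of 14.1 points ± 2.96 (SD, n = 3; from 58.4% ± 1.88 to 44.3% ± 1.26). The intron share was higher below in 3 of 3, at 35.3% ± 0.08 against 29.2% ± 1.09, and so was the intergenic share, at 13.6% ± 1.17 against 10.1% ± 1.01. Coding exons held 0.183% ± 0.091 at the top and 3.22% ± 1.73 below, with 1.23% in replicate 1 and 4.0% and 4.42% in replicates 2 and 3. Each of these mean differences exceeded its SD between replicates, least clearly for coding exons (3.03 points ± 1.64, with 1.15 in replicate 1). The exact two-sided paired permutation test gave p = 0.25 for each of them, the smallest that 3 pairs allow, and 0.292 after Benjamini-Hochberg adjustment over the 7 classes, so none can pass 0.05.

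**Figure D3:**
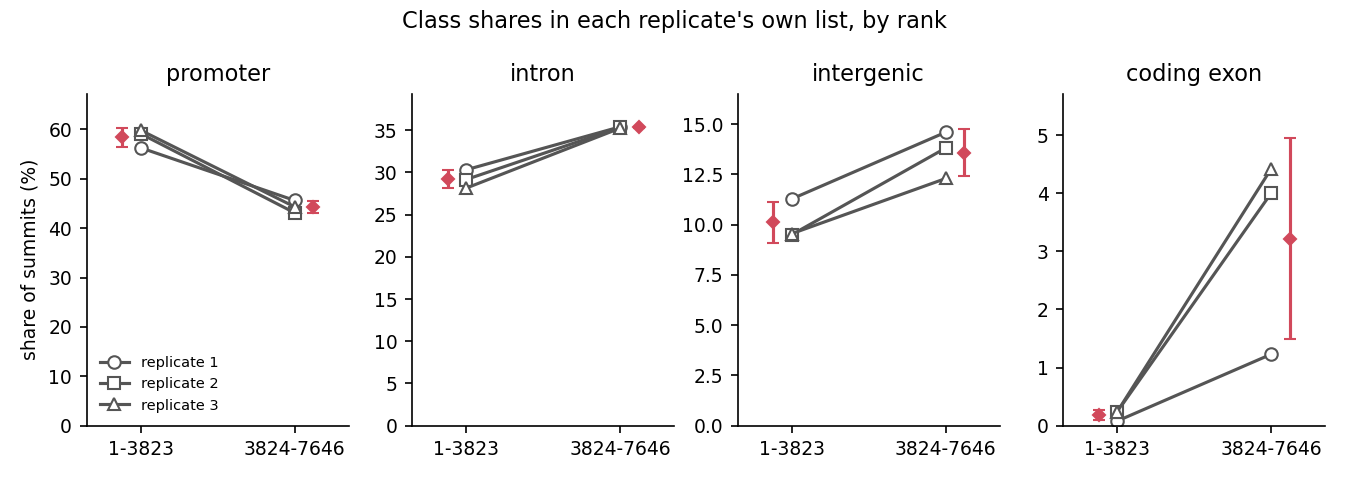
Class shares (percent of summits, vertical axis from 0) at the ranks of the optimal set and at those just below, in each replicate's own list, with lines joining the bands of 1 replicate and diamonds for the mean ± SD of 3. The promoter share is lower and the other 3 shares are higher at the lower ranks in every replicate, and replicate 1 has the smallest difference in coding exons.

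The class of a peak went with its support. Among the 715 found in all 3 replicates 53.8% were in promoters, among those in 2 replicates 48.6%, in 1 replicate 43.3% and in none 39.9%. Coding exon summits ran the other way: 0 of the 715 in all 3 replicates, 10 of 1710, 20 of 1250 and 7 of 148 in none. Median pooled signal was 64.0, 55.6, 48.9 and 46.1 over these groups, so support, class and rank move together here, and their separate parts were not tested. Of the 37 coding exon summits, 34 were in the weaker 2 of the 4 rank bands, and examples are those in InR, the insulin receptor gene (rank 6220), in cact, the gene of the NF-kappaB inhibitor Cactus (rank 7452), and in Sin3A, a corepressor gene (rank 6914). The highest ranked was in aqz (rank 4235), with replicate ranks of 4544, 15994 and none.

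Summits in promoters also sat differently. Counting those within 500 bp of a protein-coding start, 1241 of 1700 (73.0%) were upstream of it, against 85.4% in the optimal set and 59.4% in the next ranks. The median position was 60 bp upstream, with 97 bp in the optimal set and 34 bp in the next ranks. Starts on both strands, of coding or non-coding genes and in either order, lay within 500 bp of 578 of the 1816 promoter summits (31.8%). Among optimal promoter summits the share was 42.6%. In the replicates' own lists the upstream share was 82.9% ± 2.21 at the top and 68.0% ± 3.44 below (SD, n = 3), and the share with starts on both strands was 41.3% ± 1.13 and 29.2% ± 2.55. Over all classes the median distance to a start was 593 bp, 293 bp in the optimal set and 1057 bp in the next ranks.

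**Figure D4:**
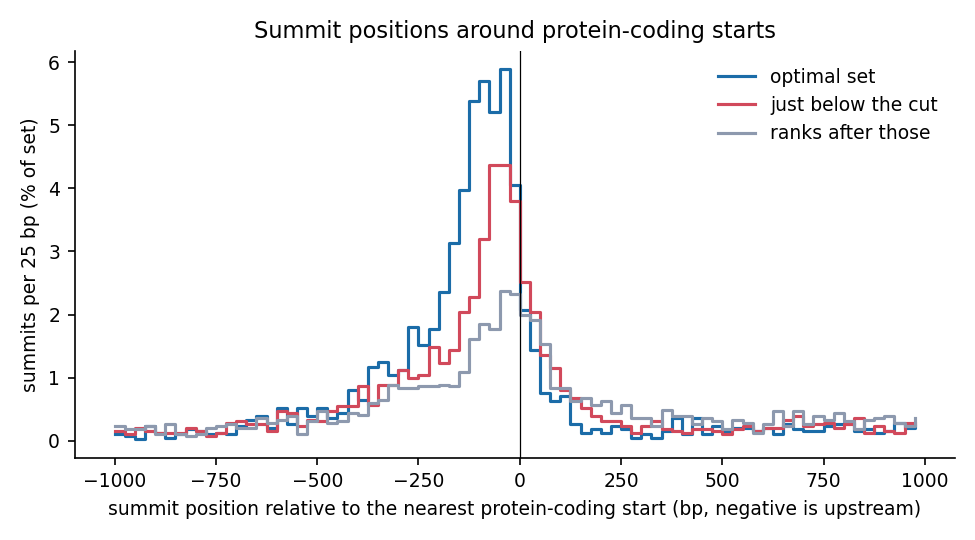
Position of summits relative to the nearest protein-coding start (horizontal axis, bp, negative is upstream), as percent of each set per 25 bp. The optimal set peaks highest upstream of the start, and the peaks just below it form a lower mound closer to the start, with medians of 97 bp and 60 bp upstream among promoter summits.

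Base composition followed the same order. The 50 bases on either side of these summits held 37.8% GC on average, against 35.1% in the optimal set and 40.0% in the next ranks, while windows 1 kb to the right held 42.6%, 42.9% and 42.4%. In the replicates' own lists GC was 35.9% ± 1.34 at the top and 39.4% ± 1.41 below. It was higher below in 3 of 3 replicates, by 3.49 points ± 0.14 (SD, n = 3; exact two-sided paired permutation p = 0.25). The difference was also present among promoter summits alone, where the means were 39.6% below the threshold and 36.2% in the optimal set.

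Core promoter elements were found more often at these summits than beside them. The DREF site, sought on both strands, lay within 50 bp of 111 summits (2.90%) and in 8 of the windows 1 kb to the right (0.209%). Of the 111, 105 were promoter summits, which is 5.78% of those, and 6 were elsewhere, 0.299% of those. Among all 19252 annotated protein-coding starts, windows of the same length centred on the start held it in 4.48%, and optimal promoter summits in 3.33%. In the pooled list the share was 2.01% in the optimal set and 1.57% in the next ranks. Within 100 bp of the summit it was 4.66% below the threshold and 4.71% in the optimal set, so the order of these was not kept. In the replicates' own lists the means had the other order, with 2.47% ± 0.41 at the top and 1.97% ± 0.28 below (SD, n = 3). The replicates were divided. The share went from 2.51% at the top to 1.67% below in replicate 2 and from 2.85% to 2.01% in replicate 3. In replicate 1 it was higher below, at 2.22% against 2.04%.

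The other motifs were read in the same way. Motif 1 was at 35 summits (0.916%) and in 5 windows beside them, with 34 summits in the optimal set (0.889%). It was at 1.82% of promoter summits below the threshold and at 2.73% of all protein-coding starts. TATAAA, the core of the TATA box, was at 17.2% of summits and in 10.7% of windows beside them, against 20.6% of optimal summits. Promoter summits alone held it in 14.8% and all protein-coding starts in 15.5%. The shares were 16.1% ± 1.60 below and 19.6% ± 1.53 at the top in the replicates' own lists. The letters GTCACGC, part of the sites bound by paired domains, were at 20 summits and in 14 windows beside them, and in 14 and 28 for the optimal set. A run of 4 CA repeats was at 2.46% of summits, close to the 2.30% beside them, and at 1.02% of optimal summits. GAGAGA was at 4.58% and 4.11%, and CAGCTG at 5.10% and 4.79%. These are letter matches in a window and say nothing of what was bound.

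Most of these peaks lay apart from optimal ones. The median distance to the nearest optimal summit was 5694 bp, 639 (16.7%) lay within 1 kb of one, and 452 (11.8%) had intervals that overlapped an optimal interval. In the replicates' own lists 17.0% ± 0.75 of the lower band lay within 1 kb of the upper one. Those within 1 kb were more often in promoters (57.6% against 45.5% of those further away) and more often found in all 3 replicates (32.4% against 16.0%). The contrast in support depends in part on the 200 bp rule. Of the peaks, 324 lay within 210 bp of an optimal summit, whose replicate summits can count for them. Of 2680 bins of 50 kb that tile the arms, 1587 held a peak below the threshold, 1462 an optimal one and 1214 both, and 619 of the peaks (16.2%) fell in 373 bins with no optimal peak. Arm densities were 27.2 to 29.9 per Mb, except on chromosome 4, which had 25 peaks or 18.5 per Mb, against 13 optimal and 58 in the next ranks.

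The densest of the bins without an optimal peak lay at ttk, the gene of the zinc finger repressor Tramtrack, known in bristle lineage and cone cell development (3R:31713867-31735392). The 50 kb from 31700001 to 31750000 held 11 peaks, and the nearest optimal summit was 19180 bp away from any of them. A peak was 3 bp upstream of the first start of ttk (rank 7534), another 219 bp upstream of an internal start (rank 5104, replicate ranks 4704, 16572 and 6362), and 3 more lay inside the gene. The best ranked in the bin was 163 bp upstream of CG1896 (rank 4234, replicate ranks 4161, 3684 and 3820). Within the bin, pairs at ttk, CG1896 and CG1910 lay within 300 bp of each other, so the 11 peaks are fewer places.

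A second such bin lay on 3L. The non-coding gene lncRNA:CR46006 (3L:10323501-10367450) held 9 peaks and no optimal one. The bin from 10350001 to 10400000 held 9 peaks, from rank 4230 down to 7631, and its nearest optimal summit was 123761 bp away. No protein-coding start lay near: the closest was that of CG12362, which was nearest to 11 peaks without holding 1 inside it. The peak at rank 4230 lay in an intron 61899 bp from that start, with replicate ranks of 6697, 2125 and 6876, and the intergenic one at rank 4502 had 5565, 4238 and 4826. Other genes that were the nearest to many peaks had optimal ones too: px with 11 below the threshold and 5 optimal, pnt with 10 and 3, tara with 10 and 8, and Eip75B, an ecdysone-induced nuclear receptor gene, with 8 and 5.

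The summits inside the tagged gene were in this range of the list or weaker, although a strong optimal peak overlaps its 3' end. sv (FBgn0005561) runs on the plus strand of chromosome 4 from 1088798 to 1113317. Its summit at the start had a pooled signal of 49.7 and −log10 q of 2.01, with ranks of 8085 in replicate 1 and 7718 in replicate 2. Replicate 3 had no summit within 200 bp, so by the rule for support this summit was found in none. A weaker pooled summit 209 bp inside the start, at rank 11189, had the same ranks in replicates 1 and 2. In replicate 3 that weaker summit had rank 7331, which counts as support. A summit in an intron, at rank 7257, had ranks of 10565 and 3500 in replicates 1 and 3 and none in replicate 2, and another at rank 7506 was present in replicate 1 alone, at rank 4475. The optimal peak, at rank 87 with a signal of 481 and replicate ranks of 158, 79 and 48, had its summit 22 bp past the annotated end of sv, in the gene Cals. Poxn, another Pax gene, which directs the fate of poly-innervated sense organs, had its summit at rank 4559, 327 bp upstream, and was found in all 3 replicates, at ranks 3680, 6384 and 4889.

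The peaks reached 3306 of 13945 protein-coding genes (23.7%), counting a summit in the gene body or up to 2 kb upstream. The optimal set reached 3751 (26.9%). Both reached 1411, which is 42.7% of the genes below the threshold and 37.6% of the optimal genes, and 1895 genes (13.6%) had a peak below the threshold and no optimal one. By the nearest start, 1982 of 2669 genes had 1 peak and 687 had more. The gene lists that follow were chosen with earlier results known, and 13.6% is the share added over all protein-coding genes. Only a gene with no optimal summit can be added. A list with many optimal genes therefore has fewer left to add, and its added share is held down. A long gene or a crowded neighbourhood meets the rule more easily, and a summit between 2 starts counts for both genes.

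In the 6 lists of housekeeping complexes, between 12.1% and 24.7% of the genes had a summit below the threshold alone. Of 93 cytosolic ribosomal protein genes, 63 had an optimal summit, 15 more (16.1%) had one below the threshold alone and 15 had neither. RpS26 had its summit 9 bp upstream of the start at rank 3938 (replicate ranks 5832, 4550 and 2749) and RpL35A 49 bp upstream at rank 4108 (4355, 3842 and 2266). Of 73 mitochondrial ribosomal protein genes, 34 had an optimal summit and 18 more (24.7%) had one below only, 17 of them within 500 bp of their own start. mRpL44 was reached at rank 3848, in 2 replicates, and mRpL54 at rank 3976, in 3. Over all protein-coding genes the share added was 13.6%.

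For the proteasome, the protease that degrades ubiquitin-tagged proteins, 9 of 48 genes had an optimal summit and 8 others (16.7%) one below the threshold, all 8 within 500 bp of their start. They were Rpn8, Prosbeta1, Rpn12, Rpt3, Rpt1, Rpt5, Rpt6 and Rpn10, so 4 of them are ATPases of the base. Rpn12 at rank 4285 (replicate ranks 4394, 6035 and 7343), Rpt3 at 5119 and Rpt5 at 5480 were found in all 3 replicates. The summit at Rpn12 also counted for UQCR-C2, a respiratory chain gene nearby. In the respiratory chain and ATP synthase list 15 of 91 genes (16.5%) were reached below the threshold only, with 31 optimal. ND-B18 at rank 3839 was found in all 3, and ATPsyndelta was counted for a summit in an intron of the neighbouring gene Ypel. Of 32 aminoacyl-tRNA synthetase genes 4 were added, PheRS-m and AspRS-m in all 3 replicates, and of 33 vacuolar ATPase genes 4 were added, led by Vha68-2 and VhaAC45 in 2 replicates each.

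As a share of all genes in a list, additions were highest for cell cycle genes among the 20 lists, where all protein-coding genes had 13.6%. Of 20 genes 3 had neither kind of summit, 9 had an optimal one and 8 more (40.0%) one below the threshold, each a promoter summit. These were rux, which encodes an inhibitor of cyclin A activity, Cdk2, CycB, fzy, an activator of the anaphase-promoting complex, CycD, twe, a Cdc25 phosphatase gene, Rbf, the retinoblastoma homologue, and CycA. The summit of rux lay 43 bp upstream of its start at rank 3920, with replicate ranks of 5141, 2424 and 3274. CycB at rank 4204 had 3973, 6008 and 4882, and fzy at rank 4425 had 4827 and 6863 in replicates 1 and 2 and was found in replicate 3 too. Cdk2, whose DREF site is printed above, ranked 8259, 2236 and 6069, and CycA, at rank 5902 with a DREF site too, ranked 4829, 5036 and 8673. Of the 8, rux, CycB and fzy were found in all 3 replicates, 4 in 2 and twe in 1.

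Next come the lists closest to what sv is known for, to be read beside the 13.6% added over all protein-coding genes. Of 23 sensory organ and bristle lineage genes 10 had an optimal summit and 4 were added (17.4%): pros, a homeodomain gene whose summit 14 bp inside the start at rank 4292 ranked 4960, 6221 and 5195, and ttk, D and sv. Of 24 eye cone and pigment cell genes 9 had an optimal summit and 7 were added (29.2%): Egfr in an intron at rank 3927 (replicate ranks 3102, 4683 and 11878), pros, oc, Fas2, sv, eya and rst. Of these 7, pros alone was found in all 3 replicates. In the Notch list 3 of 21 were added (14.3%, near the share over all genes). They were E(spl)mbeta-HLH, a target gene, at rank 4028, and fng and H. E(spl)mbeta-HLH had ranks of 4642 and 3792 in replicates 1 and 3 and none in replicate 2. In the EGFR and Ras list 4 of 19 were added, sty, a feedback inhibitor, at rank 3831 (5787, 3768 and 3300), and Egfr, ksr and rho. None of these 4 had a summit within 500 bp of its own start. All 4 genes added to the sensory organ list and all 3 added to the Notch list had one.

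Other developmental lists were small, and their shares rest on few genes, beside 13.6% over all protein-coding genes. Of 8 Hox genes 3 were added: Dfd, with a summit 306 bp upstream of the start (rank 5816), and lab and pb in introns, at ranks 6032 and 6039. None of the 3 was found in all 3 replicates. Of 10 Pax genes sv and Poxn were added. Of 19 ecdysone response genes 3 were added (Hr39, Eip78C and Kr-h1), of 23 imaginal disc genes 5 (ptc, sd, bab1, ci and exd), of 14 Hippo pathway genes 3 (ft, sd and sav) and of 17 muscle genes 2 (Act87E and Mlc1). ptc, the Hedgehog receptor gene, at rank 4433 in an intron and Act87E at rank 5118 were found in all 3 replicates. Insulator and interband protein genes had 9 of 15 with an optimal summit and gained 1, su(Hw), found in none of the replicates. Tissue-restricted families stayed almost empty: 1 of 122 cuticle protein genes, Cpr51A, and 3 of 179 chemoreceptor genes, Or71a, Or67d and Gr64a, were added, and the summit at Or71a lay 148 bp upstream of the start of another gene, Plp.

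**Figure D5:**
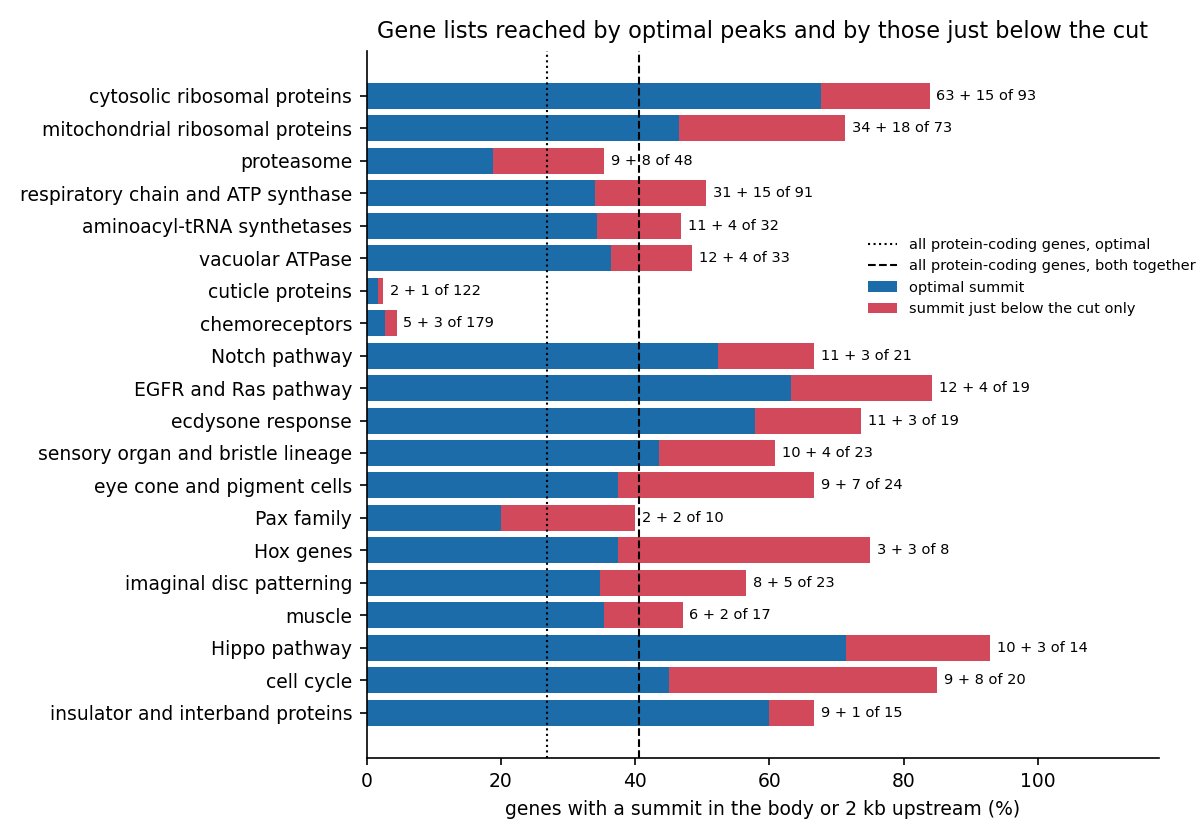
Share of genes in each list (percent, horizontal axis) with an optimal summit and with a summit just below the threshold only, with the counts beside each bar. The dotted line is the optimal share over all protein-coding genes (26.9%) and the dashed line adds the genes reached only below the threshold (13.6%). Cell cycle genes show the longest addition among lists of 20 genes or more, with 8 of 20, and cuticle and chemoreceptor genes nearly none.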

How the data were processed

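Per the file headers and manifests, the authors called peaks in dm6 and dm3 for each of 3 replicates, and for all 3 together, against a shared control. Neither aligner, caller, IDR threshold nor antibody source is given in the sources used here. The labels' antibody field names sv and their description names GFP. The deposited signal value of a peak is the authors' own, with unknown scaling, and was used within a list to rank peaks. The deposited −log10 q-value, which reaches a ceiling, was only described. The deposited summit offset (a count of bases from the peak start) gave the summit. Reads were not used here, so depth is unknown and no interval is given.

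The 3823 peaks described, ranks 3824 to 7646, were taken by sorting the pooled dm6 list by signal, ties by chromosome and summit. They and all gene lists were chosen with earlier results of these data known. Positions are in dm6 and counted from 1; sequence came from the NCBI Release 6 assembly and genes from Ensembl release 115, both on the same coordinates. The annotation's 5809 transposable elements were left out, and arms X, 2L, 2R, 3L, 3R and 4 were used. Starts are those of annotated transcripts. Gene lists hold 20 sets, matched by name and by RefSeq synonyms.

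Support was counted in the strongest 7646 peaks of each replicate, and the next ranks are 7647 to 11469. Summit windows were 101 bp. A summit took the first class that applied in the order promoter, UTRs, coding exon, other exon, intron, intergenic. Class and GC differences were compared within each replicate's own list by an exact two-sided paired permutation test. Scripts (Python 3.11.15, numpy 2.4.6, pandas 2.3.3, scipy 1.17.1) were tested on simulated data. Named genes are the nearest protein-coding starts of the first 5 and last 5 peaks and the 10 with the best worst replicate rank. Further ones are those of 5 peaks supported in 1 replicate and of up to 2 per list with the highest rank. All other genes, the 50 kb bins and the count of each replicate summit for its nearest pooled summit were picked with their values in view. Alternatives changed distances, widths, rank ranges, gene assignment and build, and left out each replicate.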

Additional observations from a re-analysis of the deposited data

How the results depend on the processing

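All 4 class differences and the GC difference kept their direction under every alternative run, with the promoter difference between -10.8 and -18.5 points. The coding exon difference moved most, from 3.03 points as reported to 1.49 for ranks better than 5735, 1.59 with promoters of 1000 bp, 0.811 in the pooled list and 4.03 with promoters of 200 bp. With 3 replicates no p could pass 0.05, so this says nothing of significance. The share found in all 3 replicates depends most on its definition: 18.7% as reported, 10.02% within 100 bp, 29.6% within 500 bp, 1.83% with as many replicate peaks as the optimal set holds, 75.3% in all 30000 and 31.6% for ranks better than 5735. With a replicate left out, 31.4% to 34.8% were found in both others. In the dm3 lists it was 19.3%, and 16.0% without the peaks within 1 kb of an optimal summit. The share near an optimal summit was 16.7% within 1 kb, 11.98% within 500 bp, 27.1% within 2 kb and 11.8% by overlap. Genes reached only below the threshold numbered 1895, and 371 when the peak had to be found in all 3 replicates. The DREF share was 2.90%, 4.66% within 100 bp (4.71% in the optimal set), 5.78% in promoter summits and 3.51% for ranks better than 5735. There was 1 group, so replicate numbers pair nothing between groups. Depth is unknown.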
